A study of Homo sapiens with 6 samples.

Results

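The chitinases and their relatives described here are 5 genes of glycosyl hydrolase family 18: *CHI3L1*, *CHI3L2*, *CHIT1*, *CHID1* and *CTBS*. They were found by gene symbol among the 20348 genes of the deposited table, and each symbol matched 1 gene. The family was chosen by the counts of *CHI3L1* in the comparison described here, Control against WNK463, where *CHI3L1* had the smallest p of all genes tested. The values of the 5 genes in this comparison are therefore given as a description, without a test. RNA-seq was made from MV4-11 cells, an established human cell line of acute myeloid leukemia (AML). The 3 WNK463 samples had received 1 μM WNK463, a compound that inhibits kinases of the WNK family, for 48 h. The 3 Control samples were a blank control, also for 48 h, and whether it held the solvent is not stated. The experiment asked how the inhibitor acts on AML cells at the level of RNA. The Control libraries held 17411780, 15328483 and 17246723 counts in total, and the WNK463 libraries 15824474, 16171235 and 14915745. The labels do not state that the samples came from separate cultures, so p-values measure only the spread between these samples, which may be technical.

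Enzymes of glycosyl hydrolase family 18 cut chitin and other chains that contain N-acetylglucosamine, using a glutamate at the end of a short conserved motif in the active site. Some relatives have lost this residue, and these chitinase-like proteins bind sugar chains without cutting them. *CHI3L1* encodes a secreted glycoprotein made by macrophages, neutrophils and chondrocytes, and its level in serum rises in inflammation and in many cancers. *CHIT1* encodes the chitinase of activated macrophages, *CTBS* a lysosomal enzyme that trims the core of N-linked glycans, and *CHID1* a binding partner of the scavenger receptor stabilin-1.

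The coding stretch over the motif shows which of the 5 proteins keep the catalytic residue. The stretches below were read from the GENCODE 29 transcripts on GRCh38, 5′ to 3′ on the coding strand, and the capitals mark the codon at the catalytic position.
CHI3L1: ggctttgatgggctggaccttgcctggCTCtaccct
CHI3L2: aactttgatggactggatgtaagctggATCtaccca
CHIT1: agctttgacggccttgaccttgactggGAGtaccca
CTBS: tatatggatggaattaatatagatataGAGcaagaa
The *CHI3L1* stretch lies in exon 5 at chr1:203183680-203183715 on the minus strand, and codon 140 encodes leucine. The *CHI3L2* stretch lies in exon 5 at chr1:111234983-111235018 on the plus strand, and codon 145 encodes isoleucine. The *CHIT1* stretch lies in exon 5 at chr1:203223549-203223584 on the minus strand, and codon 140 encodes glutamate. The *CTBS* stretch lies in exon 3 at chr1:84570021-84570056 on the minus strand, and codon 143 encodes glutamate. *CHIT1* and *CTBS* thus have the catalytic glutamate, while *CHI3L1* and *CHI3L2* have a hydrophobic residue in its place. The last of the 3 aspartates of the motif, which lies before the catalytic position, is also replaced, by alanine in *CHI3L1* and by serine in *CHI3L2*. *CTBS* keeps this aspartate and has asparagine in place of the middle one, while *CHIT1* has all 3. The motif of *CHID1* could not be aligned without a gap, and no stretch is shown for it. Aligned to *CHIT1*, the encoded proteins of *CHI3L1* and *CHI3L2* were each 53.3% identical, that of *CHID1* was 24.4% identical and that of *CTBS* was 23.6% identical. *CHI3L1* and *CHI3L2* were 51.6% identical to each other, at 197 of 382 aligned residues. By this measure *CHI3L1*, *CHI3L2* and *CHIT1* were closer to each other than *CHID1* and *CTBS* were to *CHIT1*.

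*CHI3L1* (ENSG00000133048) is a minus-strand gene at chr1:203178931-203186749 (GENCODE 29, GRCh38). Its level was 172, 167 and 163 TPM, a unit that corrects for gene length, in the Control samples. With WNK463 it was 1245, 1226 and 1241 TPM. All 3 WNK463 samples were far above all 3 Control samples, and the samples of each group lay close together. The mean was 167 ± 4.52 TPM without and 1237 ± 9.72 TPM with the inhibitor (SD, n = 3 each), a ratio of 7.39. In counts, *CHI3L1* had 2662, 2240 and 2462 in Control and 16851, 17135 and 16021 with WNK463. On the scale of CPM, counts scaled to library size with TMM factors, the means were 155 ± 6.13 and 1012 ± 14.1, a ratio of 6.52. The log2 fold change from edgeR was 2.70 with a standard error of 0.05. In bulk RNA, more cells that express the gene and more RNA per cell cannot be told apart.

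*CHI3L1* was already well expressed without the inhibitor. By mean TPM it was number 948 of 20348 genes in Control and number 115 with WNK463. The rank lay between 912 and 999 over the Control samples and between 109 and 117 with WNK463. Its transcripts made up 0.0167% of all TPM in Control and 0.124% with WNK463. Among the genes tested, 165 called genes had a larger log2 increase, and 0 of these reached the TPM of *CHI3L1* with WNK463. The plot of all genes shows both its increase and its final level. Since the family was chosen by these counts of *CHI3L1*, they describe the choice and are not a separate result.

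**Figure D1:**
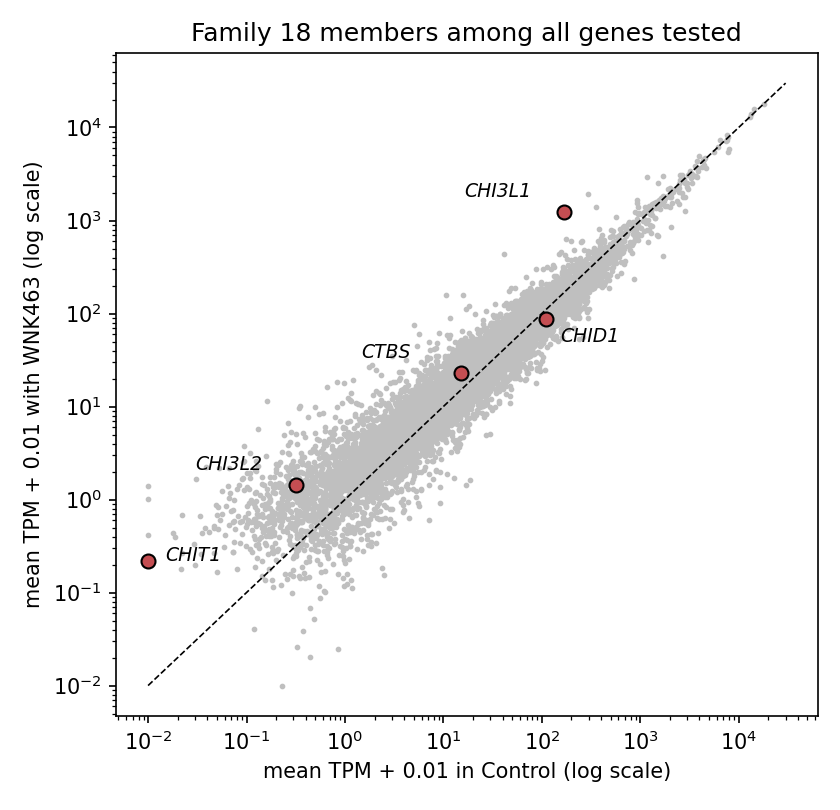
Mean TPM of each tested gene in Control (x axis) and with WNK463 (y axis), both on a log scale after adding a small constant so that values of 0 can be drawn. Red points are the 5 members, including *CHIT1*, which was below the filter on low counts, and the dashed line marks equal levels. *CHI3L1* stands above the cloud of genes at 167 TPM in Control and 1237 TPM with WNK463, while *CHID1* and *CTBS* lie within it.

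*CHI3L2* (ENSG00000064886), whose product is secreted by chondrocytes and some immune cells, is a plus-strand gene at chr1:111200771-111243440. It had 4, 7 and 1 counts in Control and 18, 11 and 15 counts with WNK463. These counts correspond to 0.322, 0.442 and 0.150 TPM in Control and to 2.02, 0.892 and 1.41 TPM with WNK463. The groups did not overlap, but every value rests on at most 18 counts. The log2 fold change was 1.78 with a standard error of 0.54. Without Control replicate 2 it was 2.48 and without Control replicate 3 it was 1.29, so single Control samples moved the estimate. With limma on log2(TPM + 1) without a filter *CHI3L2* was at 0.88, below 2-fold. *CHI3L2* passed the filter on low counts only through the WNK463 group, and stricter filters removed it. The annotated gene overlaps *DENND2D* on the opposite strand over 3765 bases, and the kit is not stated to keep strand, so reads in that stretch could belong to either gene. *DENND2D* had between 229 and 384 counts per sample and was lower with WNK463, with a log2 fold change of -0.44.

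*CHIT1* (ENSG00000133063) is a minus-strand gene at chr1:203212827-203273641. It had 0 counts in all 3 Control samples and 9, 2 and 0 counts with WNK463. The WNK463 replicate 3 sample was thus at 0 like the Control samples, and the groups overlapped. *CHIT1* was below the filter on low counts and was not tested. Over the group, 0 of 49986986 Control counts allow up to 0.06 CPM, at a floor of 3 counts that covers counting error only. The 11 counts of the WNK463 group are 0.234 CPM, 3.91 times this limit. This leaves out the counting error of the 11 counts, so it is not a lower bound on the fold. Of the 11 counts, 9 came from WNK463 replicate 1, and without that sample 2 counts were left, which is at or under the floor and gives no fold. The chitinase that macrophages make when activated was therefore at or near the detection limit in every sample.

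*CHID1* (ENSG00000177830) is a minus-strand gene at chr11:867860-915058. It had 123, 102 and 106 TPM in Control and 82.6, 89.5 and 91.2 TPM with WNK463. Every WNK463 sample was below every Control sample, although the gap between the groups was small. The means were 110.1 ± 11.3 and 87.8 ± 4.54 TPM (SD, n = 3 each), a ratio of 0.798. The counts were 1613, 1178 and 1381 in Control and 927, 1028 and 979 with WNK463, and the log2 fold change was -0.56 with a standard error of 0.07. *CHID1* was the only member with a lower level after treatment, and this direction held under each scaling tried, although the size fell to -0.32 on TPM.

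*CTBS* (ENSG00000117151) is a minus-strand gene at chr1:84549606-84574480. Its level was 13.9, 16.1 and 14.9 TPM in Control and 25.2, 22.4 and 22.0 TPM with WNK463. Every WNK463 sample was above every Control sample. The means were 15 ± 1.11 and 23.2 ± 1.74 TPM (SD, n = 3 each), a ratio of 1.55. The counts were 385, 381 and 441 in Control and 643, 570 and 522 with WNK463, and the log2 fold change was 0.46 with a standard error of 0.08. *CTBS* overlaps *SPATA1* on the opposite strand over 16589 bases. *SPATA1* had 8, 10 and 1 counts in Control and 20, 24 and 17 counts with WNK463. Without strand, reads of the shared stretch cannot be told apart.

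**Figure D2:**
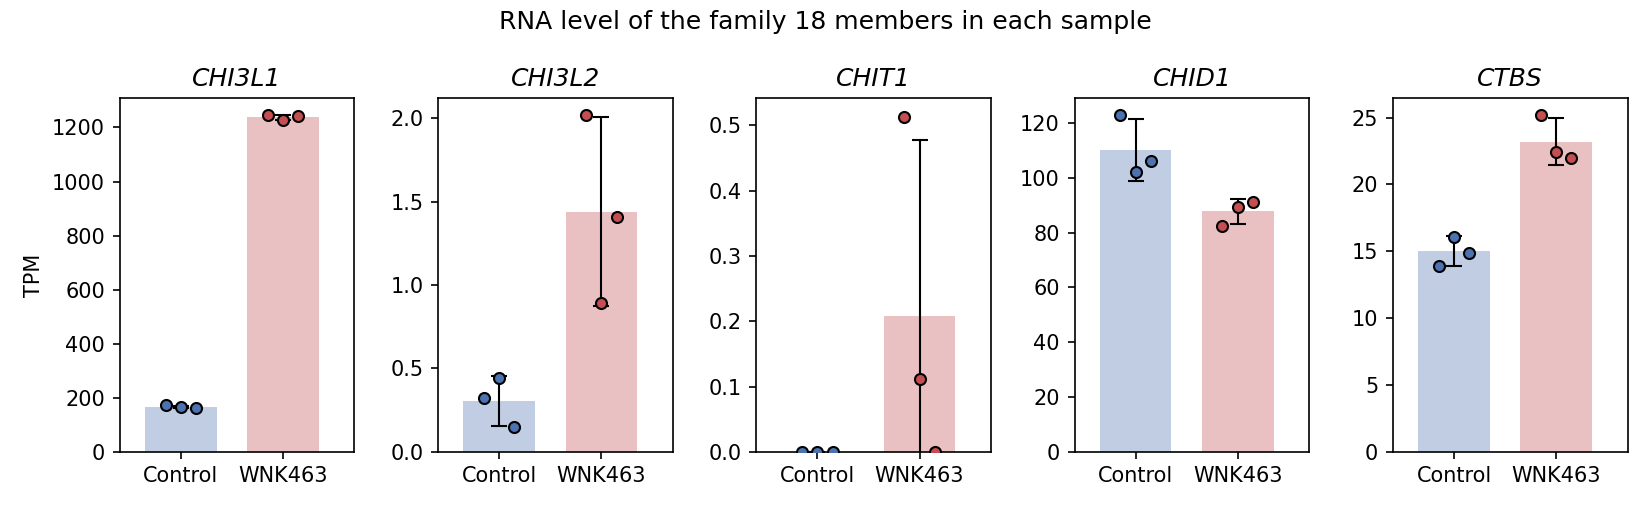
TPM of each of the 5 members in the 3 Control and 3 WNK463 samples. Points are samples, bars are group means and whiskers are the SD (n = 3), cut at 0 for *CHIT1*; each panel has its own axis from 0. *CHI3L1* moves from 163 to 172 TPM in Control to 1226 to 1245 TPM with WNK463, while *CHIT1* has 3 Control samples and 1 WNK463 sample at 0.

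The order of the 5 levels was the same in both groups on the TPM scale. *CHI3L1* was highest, followed by *CHID1*, *CTBS*, *CHI3L2* and *CHIT1*. The ranges over samples of neighbours in this order did not overlap in either group, although for *CHI3L2* and *CHIT1* in Control this rests on 1 count in the lowest *CHI3L2* sample against 0. As a ratio, the closest pair was *CHI3L1* and *CHID1* in Control, where the lowest *CHI3L1* sample had 163 TPM and the highest *CHID1* sample had 123 TPM. The ratio of *CHI3L1* to *CHID1* was 1.4, 1.65 and 1.54 in Control and 15.1, 13.7 and 13.6 with WNK463. The summed TPM of the family was 309, 286 and 284 in Control and 1355, 1339 and 1356 with WNK463. *CHI3L1* supplied 57.2 ± 1.5% of this sum in Control and 91.7 ± 0.173% after treatment (SD, n = 3 each). The other 4 genes together had 125 ± 10.3 TPM in Control and 113 ± 2.15 TPM with WNK463. The gain of the family as a whole was thus the gain of *CHI3L1*.

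Over all genes, edgeR's quasi-likelihood test called 1817 of 11973 genes tested (15.2%) at an adjusted p below 0.05 and a change of at least 2-fold. Of these, 1152 (9.62%) were higher and 665 (5.55%) were lower with WNK463. Scaling by total counts gave 1451 higher and 458 lower genes and moved the median log2 fold change of all genes from 0.02 to 0.17. Of the 5 members, 4 passed the filter on low counts, *CHI3L2* only through the WNK463 group. The values of the 3 samples did not overlap between groups for 4 members and for 73.5% of all genes tested. These counts are given as a description, since the comparison chose the family. The direction of the 4 members that passed the filter was the same with TMM, with total counts and on TPM.

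The starts of *CHI3L1* and *CHI3L2* are shown because these genes had the 2 largest log2 increases among the 4 members that passed the filter on low counts. The 250 bases before each start were taken from RefSeq on GRCh38.p14, where all 5 members matched an entry, and capitals mark the motif matches named in the text.
CHI3L1: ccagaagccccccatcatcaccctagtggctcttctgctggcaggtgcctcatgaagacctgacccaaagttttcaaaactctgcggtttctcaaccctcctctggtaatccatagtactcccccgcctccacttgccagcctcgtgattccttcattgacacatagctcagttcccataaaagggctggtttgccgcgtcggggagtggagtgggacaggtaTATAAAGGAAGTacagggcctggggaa
CHI3L2: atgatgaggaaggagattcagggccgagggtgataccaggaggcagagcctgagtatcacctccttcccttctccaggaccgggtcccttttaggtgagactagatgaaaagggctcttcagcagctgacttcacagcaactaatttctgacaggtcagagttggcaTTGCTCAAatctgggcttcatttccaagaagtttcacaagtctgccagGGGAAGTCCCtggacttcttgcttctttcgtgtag
The *CHI3L1* window is chr1:203186705-203186954 on the minus strand and the *CHI3L2* window is chr1:111227409-111227658 on the plus strand. *CHI3L2* has a second annotated start further downstream, whose window is not shown. The RefSeq starts of all 5 members lie inside the GENCODE 29 genes given above, those of *CHI3L2* and *CHIT1* furthest. The *CHI3L1* window begins at 203186705, while its GENCODE 29 gene reaches 203186749. Both motif matches of *CHI3L1* named below thus lie inside that gene. Both strands were searched for 7 motifs. The TATA box was searched as TATAAA and the core of PU.1 and other ETS factors as GGAAGT. The SP1 motif was GGGCGG and the USF motif was CACGTG. The AP-1 motif was TGANTCA and the C/EBP motif was written with a free pair of bases, as TTGCNNAA. The NF-kB motif was GGGA and CC separated by any 4 bases. In *CHI3L1*, the TATA box match lies 27 to 22 bases before the start and the ETS core follows directly, 21 to 16 bases before it. In *CHI3L2*, the ETS core lies 34 to 29 bases before the start, inside an NF-kB match at 35 to 26 bases, and a C/EBP match lies 83 to 76 bases before it. Among 35116 promoters of this length, 10.7% held the TATA box, 19.5% the ETS core, 22.6% the NF-kB motif and 9.1% the C/EBP motif. The shares for SP1, USF and AP-1 were 42.6%, 6.3% and 6.6%. The *CHIT1* window also held the ETS core, but as its reverse complement and further out, 229 to 224 bases before the start. The *CTBS* window differed, with 6 SP1 matches and a GC content of 72.8%, against 54.0% in *CHI3L1*. The *CHID1* window held 1 match, of the NF-kB motif. A match describes letters only, and binding was not measured.

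Of the 5 neighbours of *CHI3L1* on chromosome 1 that are not members, 2 were tested, and these went in opposite directions by less than 2-fold. *MYBPH*, which encodes a myosin-binding protein, lies 3.1 kb from *CHI3L1*. It had 423, 415 and 412 TPM in Control and 321, 302 and 314 TPM with WNK463. It fell by 0.61 on the log2 scale with an SE of 0.05 (adjusted p = 1.6e-09 from edgeR), and was lower in all 3 WNK463 samples. *MYBPH* was thus above *CHI3L1* in Control and below it with WNK463. On the other side, the near edge of *CHIT1* lies 26.1 kb away, and the gene was at or near 0. *BTG2*, an antiproliferative gene 118.7 kb away, rose by 0.84 (adjusted p = 2.7e-09 from edgeR), with 32.8, 29.8 and 31.1 TPM in Control and 64.6, 59.4 and 65.2 TPM with WNK463. With limma on log2(TPM + 0.1) *BTG2* was at 1.01, past 2-fold. *MYOG* and *FMOD* had 0 counts in all samples, and *ADORA1* had at most 12. Among the 6 nearest protein-coding genes of *CHI3L2*, 4 were tested. Of the 6 around *CHID1*, 4 were tested, 1 was called higher (*TSPAN4*) and 3 passed the test as lower, as did 35.3% of all genes tested. Of these 3, *CD151* overlapped between the groups, and its -0.18 with TMM was -0.03 with total counts and 0.02 on TPM. Of the 6 around *CTBS*, 5 were tested. *OVGP1* near *CHI3L2* and *SPATA1*, which overlaps *CTBS*, were higher by more than 2-fold, but both passed the filter on low counts only through the WNK463 group, and the other tested neighbours of these 2 members changed by less than 2-fold.

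**Figure D3:**
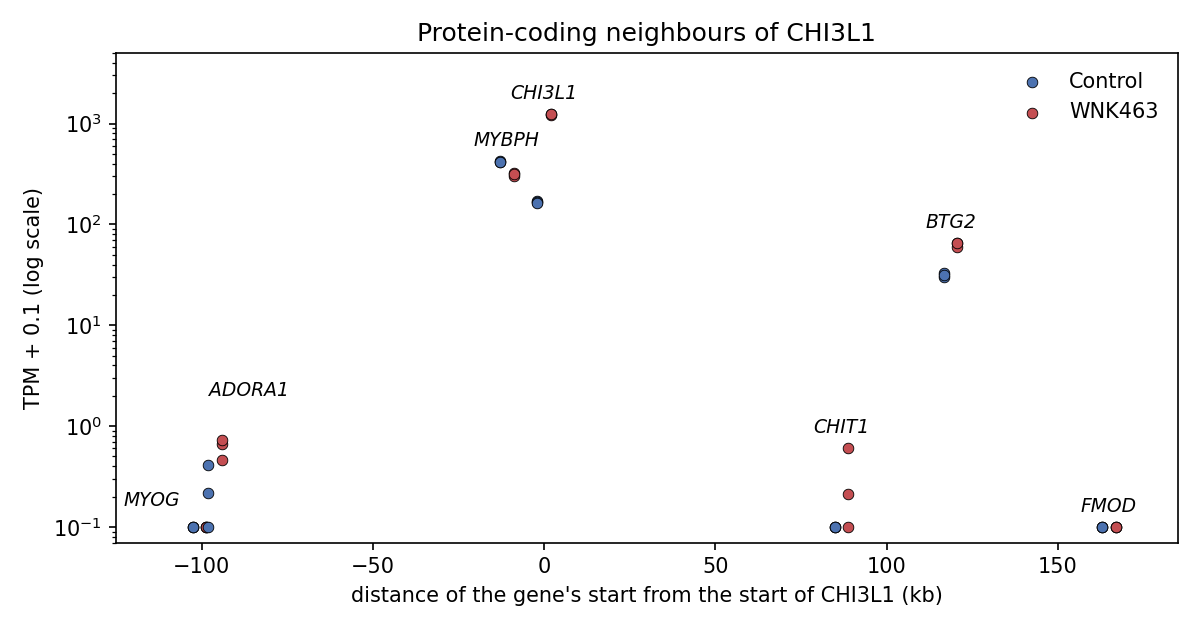
TPM of *CHI3L1* and its nearest protein-coding genes (log scale after adding 0.1) against the distance of each gene's start from that of *CHI3L1* in kb, with the outermost start that GENCODE 29 gives for each gene. Each point is a sample, blue for Control and red for WNK463. *CHI3L1* rises above *MYBPH*, which is lower with WNK463, and *MYOG* and *FMOD* are at 0.

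The 5 genes with the profile most like that of *CHI3L1* were *C3*, *SIGLEC6*, *BIRC3*, *MERTK* and *SH3PXD2A*. Likeness was the Euclidean distance between log2 CPM values centred on the gene mean, over 6 samples, after adding 0.5 to the CPM, and it lay between 0.0948 for *C3* and 0.268 for *SH3PXD2A*. *C3*, which encodes the central protein of complement, had 144, 117 and 132 counts in Control and 1009, 970 and 894 with WNK463. On TPM it had 3.76, 11.2 and 3.93 in Control and 27.7, 31.6 and 26.3 with WNK463, so Control replicate 2 lay above the other 2 Control samples on this scale. *BIRC3*, an inhibitor of apoptosis, had 5, 6 and 5 counts in Control, where the added constant weighs most, and its log2 fold change from edgeR was 3.71, against 2.96 with limma on log2(TPM + 0.1) and 1.37 on log2(TPM + 1). It passed the filter on low counts only through the WNK463 group. *MERTK*, a receptor for the uptake of dying cells, had 35, 37 and 41 counts in Control and 314, 287 and 290 with WNK463. With 2 groups of 3 samples, this likeness mostly reflects the size of the difference between the groups.

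Family 18 has further human genes besides the members. *CHIA*, the acidic mammalian chitinase, had 0 counts in all samples, which allows at most 3 counts over each group. *OVGP1*, which encodes an oviduct glycoprotein that also lacks the catalytic glutamate, had 0.458, 0.877 and 0.518 TPM in Control and 5.72, 6.06 and 6.32 TPM with WNK463. It rose by 3.10 on the log2 scale with an SE of 0.26, and was higher in all 3 WNK463 samples. With limma on log2(TPM + 1) it was at 2.13, and a minimum of 10 counts in every sample removed it. It had 9, 15 and 10 counts in Control and passed the filter on low counts only through the WNK463 group, so its p is not given. *OVGP1* therefore stayed far below *CHI3L1* on the TPM scale. Its stretch over the motif lies in exon 5 at chr1:111423597-111423632 on the minus strand and is shown beside those of the members, with codon 141, which encodes leucine, in capitals.
OVGP1: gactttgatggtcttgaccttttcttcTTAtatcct

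Genes related to the members, the 2 other family genes included, were grouped in 9 lists of 106 genes, of which 73 were tested. Of these, 15 were called higher and 2 lower, where 9.62% and 5.55% of all genes tested were, and the median log2 fold change was 0.30, against 0.02 for all genes tested. Of the 15, 5 passed the filter on low counts only through the WNK463 group, and of the 2, 1 only through Control. Without the limit of 2-fold, 38 passed the test as higher and 16 as lower, while 70.8% of all genes tested passed it, 35.5% as higher and 35.3% as lower.

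Among 10 receptors and partners of *CHI3L1*, 7 were tested, 3 were called higher and 1 lower, with a median of 0.50. *IL13RA2*, the interleukin receptor chain that binds *CHI3L1*, had at most 2 counts per sample. Its co-receptor *TMEM219* had 113 ± 7.78 TPM in Control and 157 ± 6.92 TPM with WNK463. *CD44*, the most abundant gene of the list, had 432 ± 12.8 and 617 ± 31.6 TPM (SD, n = 3 each) and rose by 0.50 on the log2 scale (adjusted p = 2.4e-08 from edgeR). *LGALS3*, which encodes galectin-3, rose by 1.74, the receptor gene *AGER* by 1.41 and the integrin gene *ITGAV* by 1.13. *ITGB3*, whose product pairs with that of *ITGAV*, fell by 2.47, from 36, 20 and 26 counts to 9, 1 and 5, and was at -0.47 with limma on log2(TPM + 1) without a filter. Without WNK463 replicate 1 *ITGB3* was at -3.18 and without WNK463 replicate 2 at -1.97. *ITGB5*, another integrin gene, fell by 0.80 and passed the test without reaching 2-fold (adjusted p = 0.00013 from edgeR). On TPM the groups overlapped for *ITGB5*, with 6.55, 6.38 and 4.82 in Control and 3.36, 4.07 and 4.88 with WNK463. *AGER* passed the filter on low counts only through the WNK463 group and *ITGB3* only through Control. Receptor chains for the *CHI3L1* protein were thus measured at levels from near 0 to 617 TPM.

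The 16 genes listed as factors of the *CHI3L1* promoter, relatives from the same families included, were all tested. Of these, 1 was called higher and 1 lower, with a median of 0.11. Whether each acts at this promoter was not tested. *JUN* rose by 1.36 and *FOSL2* fell by 1.58 on the log2 scale (adjusted p = 2.1e-05 and 2.7e-13 from edgeR). *SPI1*, which encodes PU.1 and was the most abundant factor, had 296, 302 and 292 TPM in Control and 331, 342 and 345 TPM with WNK463, while its log2 fold change with TMM scaling was 0.00. With total counts *SPI1* was at 0.15 and on TPM at 0.19, so its direction depends on the scaling. The called factor genes changed less than *CHI3L1*.

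Of 14 cytokines known to induce *CHI3L1* and their receptors, 9 were tested and 1 was called higher, with a median of 0.23. *IL1B*, an inflammatory cytokine, had 6.60, 7.50 and 7.10 TPM in Control and 48.1, 51.0 and 48.8 TPM with WNK463, a log2 fold change of 2.60 (adjusted p = 1.8e-13 from edgeR). This was close to the 2.70 of *CHI3L1*. The receptor gene *IFNGR1* rose by 0.94, from 37.8 to 81 TPM. It was past 2-fold, and the second gene called, with total counts (1.09), with limma on TPM (1.08 to 1.1) and without Control replicate 3 (1.01). *IL6*, *IFNG* and *IL17A* had 0 counts in all samples. The receptor *TNFRSF1A* was the most abundant gene of the list, with 140 ± 2.55 and 168 ± 10 TPM, and did not pass the test at 0.08 (adjusted p = 0.23 from edgeR). It did pass with total counts, at 0.23, with limma on TPM, at 0.26, and without WNK463 replicate 2, at 0.14.

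*CTBS* works in the breakdown of N-linked glycoproteins, and the 13 other genes of this pathway were all tested. Here 2 were called higher and 0 lower, while 8 passed the test as higher and 3 as lower, with a median of 0.31. *FUCA1*, the lysosomal fucosidase, rose by 1.12 and *MANBA*, the beta-mannosidase, by 1.04 on the log2 scale (adjusted p = 4.2e-12 and 3.1e-10 from edgeR). Without Control replicate 3 *MANBA* was at 0.96, below 2-fold. *MAN2B1*, the most abundant gene of the list, fell by 0.84, from 357 to 231 TPM. The 0.46 of *CTBS* lay above this median and below *FUCA1* and *MANBA*.

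*CHID1* binds stabilin-1. In the list of stabilins and lysosomal sorting receptors 7 of 8 genes were tested and 0 were called. Of the 7, 1 passed the test as higher and 2 as lower. Of these 2, *GGA1* was at -0.26 with TMM but had a mean of 37.9 TPM in Control and 39 TPM with WNK463. *STAB1* had 0.354 ± 0.167 TPM in Control and 0.559 ± 0.149 TPM with WNK463, far below *CHID1*. *M6PR*, the most abundant gene of the list, had 272 and 315 TPM and did not pass the test at 0.07 (adjusted p = 0.17 from edgeR), but passed with total counts, at 0.22, and with limma on TPM, at 0.21. In the list of chitin recognition and hyaluronan turnover, 6 of 12 genes were tested and 0 were called, with 2 passing the test in each direction. *TLR2*, the most abundant, rose by 0.33. *CLEC7A*, a receptor of this list that was not tested, had 0 counts in all Control samples and 1, 10 and 1 counts with WNK463. In the same list 1 gene was called higher without a filter on low counts, and 1 without WNK463 replicate 3.

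*CHI3L1* is stored in the specific granules of neutrophils. Of 13 genes listed for neutrophil granules, 3 were tested, 2 of them only because the WNK463 group passed the filter on low counts. The list is not limited to genes particular to the specific granule, *MMP9* and *MMP25* among them. These 3 were called higher, and with at least 10 counts in every sample 1 was. *MMP9* rose by 3.61 on the log2 scale, from 10, 6 and 6 counts to 112, 84 and 88, and by 2.18 with limma on log2(TPM + 1), and *MMP25* rose by 1.46. *CAMP* had 0, 3 and 1 counts in Control and 11, 11 and 16 with WNK463, a ratio of 10.1 per library size with an exact 95% counting interval of 3.64 to 39. Without Control replicate 2 the ratio was 28.1 (4.74 to 1138) and without Control replicate 1 it was 6.6 (2.38 to 25.4). *MMP9* and *CAMP* are the 2 that passed only through the WNK463 group. *LTF*, *MMP8*, *CEACAM8*, *CRISP3* and *OLFM4* had 0 counts in all samples. *CHI3L1* was thus abundant in cells without detected RNA of lactoferrin, a main protein of the specific granules.

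*CHI3L1* and *CHIT1* are also known from lipid-laden macrophages. Of 19 genes of these cells, 11 were tested, 4 were called higher and 0 lower, with a median of 0.62; without WNK463 replicate 2, 1 was called lower. Without the limit of 2-fold, 6 passed the test as higher and 2 as lower, *LIPA* at -0.65 and *CTSS* at -0.86. *SPP1*, which encodes osteopontin, was at -1.18 and did not pass the test (adjusted p = 0.11 from edgeR), with 15, 11 and 9 counts in Control and 0, 13 and 3 with WNK463, where the groups overlap. *CTSD*, a lysosomal protease, had 379.6, 350.5 and 336 TPM in Control and 1422, 1328 and 1419 TPM with WNK463, a log2 fold change of 1.79. *CD36*, a lipid scavenger receptor, rose by 1.80 and *CTSK* by 1.6. *APOE*, an apolipoprotein gene, had 0, 2 and 0 counts in Control and 16, 18 and 12 with WNK463. The ratio was 24.5 per library size, with an exact 95% counting interval of 6.41 to 208. The 2 Control counts lie under the floor of 3 counts, so 24.5 is imprecise and only its interval is informative. Both Control counts came from replicate 2. Without that sample the 46 counts with WNK463 are 11.3 times a floor of 3 counts over the Control group. This leaves out the counting error of the 46 counts. Without Control replicate 1 the ratio was 16 and without Control replicate 3 it was 16.1. *APOE* passed the filter on low counts only through the WNK463 group. *GPNMB*, *CCL18*, *ACP5*, *CD163* and *MRC1*, which were not tested, had at most 5 counts per sample. The list thus held both abundant genes, such as *CTSD*, and genes at or near 0.

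**Figure D4:**
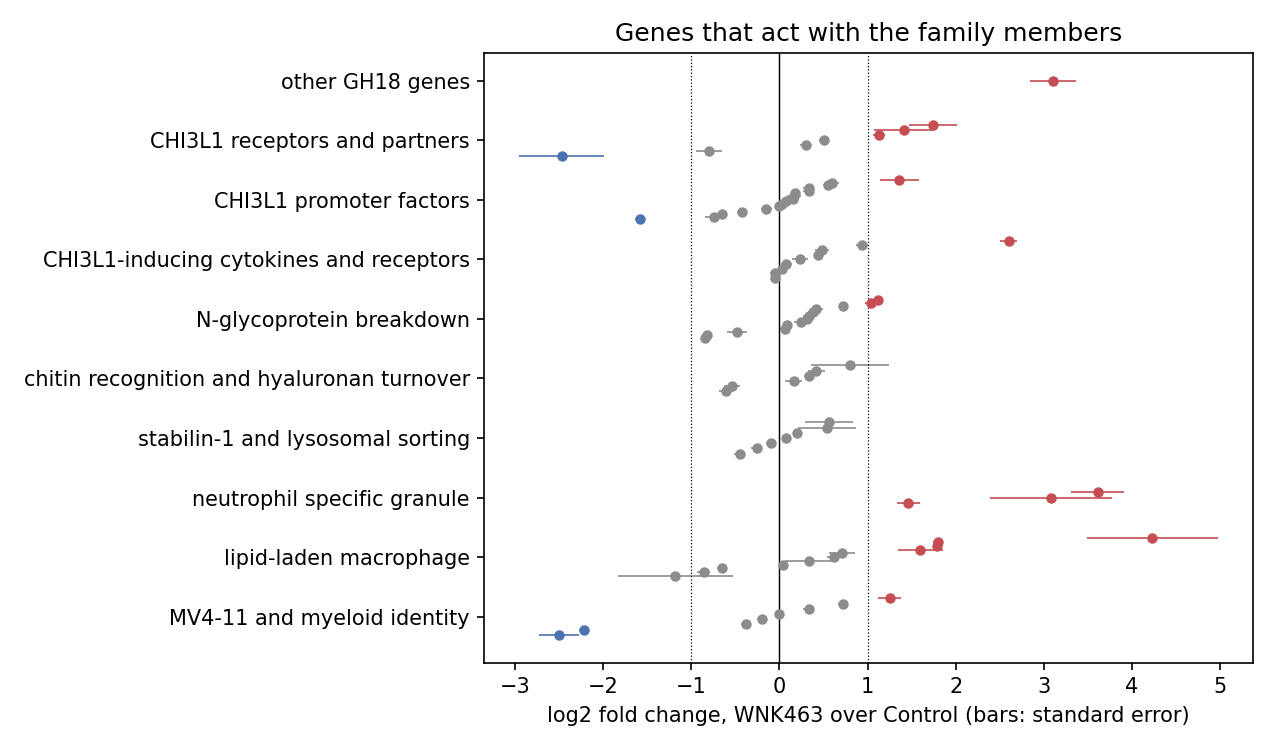
Log2 fold change, WNK463 over Control, of each tested gene in the lists (x axis), with its standard error as a bar. Red and blue genes were called in either direction (adjusted p below 0.05 and at least 2-fold, dotted lines), and grey genes were not. *IL1B* stands at 2.60 and *FOSL2* at -1.58, and 0 genes are called in the lists of stabilins and of chitin recognition; the points of *CAMP* and *APOE* rest on at most 3 counts per Control sample.

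The cells expressed the genes known for this line at levels from low to high. *FLT3* had 179.6 and 178 TPM in Control and with WNK463. With TMM it passed the test as lower, at -0.20 (adjusted p = 0.00083 from edgeR), while it was at -0.05 with total counts and at -0.01 on TPM and did not pass there. *HOXA9* had 62.6 and 113 TPM, *MEIS1* 44.4 and 67.7 TPM and *CD33* 123 and 111 TPM. Levels were low for *MPO*, with 4.34 TPM in Control and 0.922 TPM with WNK463, and for *ITGAM*, with 2.23 and 6.07 TPM. Of these 8 identity genes, *ITGAM* was called higher, and *MPO* and *LYZ* were called lower. *LYZ*, which encodes lysozyme, a secreted protein of monocytes and macrophages, fell by 2.22 while *CHI3L1* rose. Of 15 markers of other cell types, 9 had 0 counts in all samples, among them *CD3D*, *MS4A1*, *HBB*, *EPCAM* and the cartilage gene *ACAN*. Their summed level was 0.818, 0.710 and 0.556 TPM in Control and 1.49, 1.48 and 2.29 TPM with WNK463, with *CD79A* the most abundant. Chondrocytes are a known source of *CHI3L1*, and their marker *COL2A1* had at most 1 count per sample.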

How the data were processed

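MV4-11 RNA was sequenced after enrichment of mRNA. The authors deposited estimated counts per gene and sample as whole numbers; 62 values were 0 beside a TPM above 0, so these appear to be rounded estimates. The authors also deposited TPM values. The submitters' processing notes name GRCh38, fastp, Bowtie2, HISAT2, StringTie, RSEM, DESeq2 and edgeR, without versions or order. The table also holds the authors' own group means and test of the same contrast (fold change, p-value, FDR), which were not used.

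Counts were used as deposited in edgeR 4.0.16 (TMM, default filter, quasi-likelihood test, Benjamini-Hochberg adjustment over 11973 genes) in R 4.3.3. The standard error (SE) of a log2 fold change was taken from the change and its F statistic. With 3 against 3 samples, an exact permutation test of 1 gene cannot go below p = 0.10. Replicates differed from each other beyond counting noise in all pairs (chi-square per degree of freedom 2.62 to 7.23). The procedure was tested on simulated counts. Coding stretches and neighbours came from GENCODE 29, and proteins were translated and aligned with Biopython 1.88.

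The members and lists were chosen with earlier results of these data known. Named genes are the members, both other family genes, the called genes of each list with the smallest p (up to 4 per direction), its most abundant gene, the 3 nearest protein-coding genes on each side, the 5 most similar profiles and the marker genes. A few further genes were chosen after seeing their values. Alternatives were DESeq2 1.42.0, total-count scaling, other filters, limma 3.58.1 on log2(TPM + 1) and log2(TPM + 0.1), the replicate number as a block, no limit on the fold change, and each sample left out in turn.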

Additional observations from a re-analysis of the deposited data

How the results depend on the processing

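The 4 members tested kept their direction under every alternative that gave them a value. *CHI3L1* was at 2.86 with total counts and at 2.88 and 2.89 with limma on log2(TPM + 1) and log2(TPM + 0.1). *CHID1* was at -0.41 with total counts and -0.32 on TPM, and *CTBS* at 0.61 with total counts and 0.60 and 0.63 on TPM. *CHI3L2* was at 0.88 with limma on log2(TPM + 1) without a filter, and a minimum of 10 counts in every sample, or of 1 TPM in 3 samples, removed it. Leaving out each sample in turn gave 2.67 to 2.73 for *CHI3L1*, 1.29 to 2.48 for *CHI3L2*, -0.63 to -0.48 for *CHID1* and 0.38 to 0.50 for *CTBS*. *SPI1*, at 0.00, was at 0.15 with total counts, 0.19 on TPM, -0.01 with edgeR without a filter, 0.02 with at least 10 counts in every sample, and -0.03 to 0.01 with a sample left out. *CD151*, at -0.18, was at 0.02 with limma on TPM.

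The count of called genes was 1136 with limma on log2(TPM + 1), 1151 without its filter and 8473 without the limit on the fold change, where 4251 were higher and 4222 lower. Called higher were 740 genes with at least 10 counts in every sample. Called lower were 266 with limma on log2(TPM + 1), 366 on log2(TPM + 0.1) and 268 with limma on log2(TPM + 1) without its filter. The 17 called genes of the lists became 11 with at least 10 counts in every sample and 54 without the limit on the fold change. The causes were not tested, except that stricter filters test fewer genes.

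The replicate numbers did not pair the samples: the deviations of same-numbered samples correlated at 0.01, 0.02 and -0.06. With the replicate block 1818 genes were called and *CHI3L1* was at 2.70. Of 537 combinations of another named gene and an alternative, 507 kept the direction and the side of the limit on the adjusted p. With limma on log2(TPM + 1), *BIRC3* was at 1.37, *MMP9* at 2.18, *OVGP1* at 2.13, *SH3PXD2A* at 1.62, *C3* at 2.16 and *MPO* at -1.48. On the same scale *APOE* was at 1.41 and *CAMP* at 1.43, against 4.23 and 3.08 from edgeR. On the limit for the fold change, *ITGB3* was at -0.47 with limma on log2(TPM + 1) without a filter and *BTG2* at 1.01 on log2(TPM + 0.1), and *IFNGR1* was at 1.09 with total counts. Depth limits *CHI3L2* and *CHIT1*, which have at most 18 counts per sample.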
